A study of Rattus norvegicus with 8 samples.

Results

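The lysosome and autophagy genes described here are 42 genes chosen by name from what is known of their function: lysosomal enzymes, lysosomal membrane proteins, subunits of the proton pump and the autophagy machinery. All 42 were among the 17337 genes in the deposited count data, and all 42 were among the 12014 genes that passed the filter on low counts. Striatal mRNA from 8 rats was sequenced after poly(A) capture. The METH group (n = 4) had pressed a lever for intravenous methamphetamine at 0.05 mg/kg per infusion in daily 2 h sessions for 16 days, and the saline group (n = 4) had pressed for saline on the same schedule. All were labelled wild type, and the methods describe male Sprague-Dawley rats without giving their age. All rats had first been trained on food pellets and fitted with a jugular catheter, presses were rewarded on a fixed-ratio schedule with a timeout after each reward, and brains were taken under ketamine and xylazine. Self-administration began with 24 METH and 8 saline rats, and 4 per group with stable lever pressing were chosen for sampling, which is the number of libraries per group here. Each library comes from 1 rat and was not pooled.

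The lysosome is the acidic compartment in which cells break down proteins, glycans and lipids. The vacuolar proton pump (V-ATPase) acidifies it, and the enzymes arrive there as precursors. Autophagy delivers the cell's own material to it: a membrane grows around the cargo, the LC3 proteins are attached to that membrane, and the closed vesicle fuses with a lysosome. Neurons cannot dilute damaged material by dividing, and inherited loss of many of these genes causes neurodegenerative storage disease. Most of the pathway is controlled at the protein level (cleavage, lipidation, acidity), which mRNA counts do not show.

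None of the 42 genes was called differentially expressed between METH and saline striatum. Levels are given in CPM, counts per 1000000 after library scaling, and the edgeR quasi-likelihood test was run over all genes tested. The call required a false discovery rate (FDR, Benjamini-Hochberg) under 0.05 and an average level over 1 log2 CPM. By the same rule 0.516% of all genes tested were called. At an unadjusted p below 0.05, Atg16l1 was higher and Lamp2 was lower in METH rats, which is 2 of 42 genes (4.76%), against a background of 11.1% of all genes tested (6.26% higher and 4.88% lower). The values of the groups were fully apart in 1 of the 42 genes (Ulk2, lower in METH rats), against a background of 6.39%, of which 2.65% were lower. The edgeR exact test, the likelihood ratio test, limma-voom and DESeq2 also called 0 of the 42, where they called 1.40%, 1.42%, 0.499% and 1.55% of all genes tested. The lowest FDR of any of them in any fit was 0.107, that of Atg16l1 with DESeq2.

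The log2 fold changes of METH over saline lay between -0.25 (Lamp2) and 0.30 (Atg16l1), with 22 above 0 and 20 below 0. Their median was 0.0066, beside -0.0055 over all genes tested, and their median absolute size was 0.0607, beside 0.120 over all genes tested. The 42 genes were also better measured than most, with a median standard error of 0.0881 beside 0.121 and a median level of 6.41 log2 CPM beside 4.83. For 41 of the 42 genes the 95% interval of the fold change lay within 1.5-fold in either direction and the exception was Ctsc. Over all genes tested, 70.8% had an interval within 1.5-fold. These intervals bound a difference in mRNA level and do not show that the groups were equal.

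**Figure D1:**
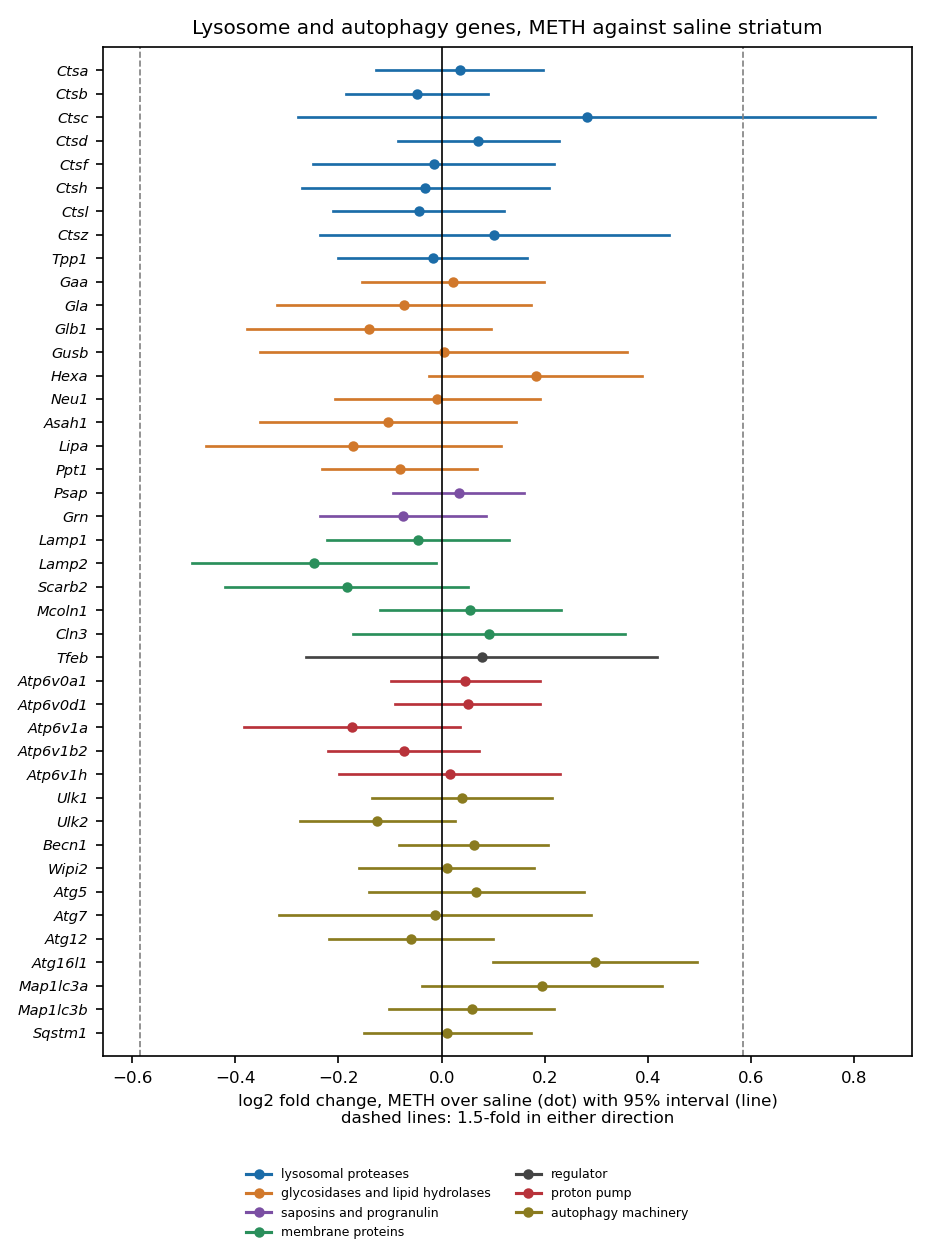
Log2 fold change of METH over saline (x axis) for each of the 42 genes (y axis, grouped and coloured by role), with the 95% interval of the edgeR fit as a line and dashed lines at 1.5-fold. The intervals of Atg16l1 and Lamp2 leave out 0, and the interval of Ctsc is the only one that crosses a dashed line.

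Summed over the 42 genes, the level was 9564, 9294, 9289 and 9379 CPM in saline rats 1 to 4 and 9521, 9293, 9584 and 9312 CPM in METH rats 1 to 4. The groups overlapped over nearly their whole range, with means of 9381 ± 128 CPM and 9428 ± 147 CPM (SD, n = 4 each). Psap alone supplied 2249 to 2409 CPM of this sum. Before library scaling, reads on the 42 genes made up 0.961%, 0.939%, 0.945% and 0.953% of all counts in saline rats 1 to 4. In METH rats 1 to 4 the share was 0.952%, 0.920%, 0.916% and 0.934%. METH rats 2, 3 and 4 thus lay below every saline rat in this share, unlike in the scaled sum, and the difference was not tested. Within a group the single genes varied little, with a median coefficient of variation of 7.45% among saline rats and 7.10% among METH rats, beside 11.4% over all genes tested among saline rats.

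Many lysosomal genes carry the hexamer CACGTG near their start, the core of the CLEAR element that TFEB binds. RefSeq promoter sequence of assembly GRCr8 (250 bases before and 50 bases from the start on) was matched for 33 of the 42 genes. No sequence was matched for Ctsb, Hexa, Asah1, Ppt1, Psap, Atp6v1b2, Atp6v1h, Becn1 and Map1lc3a. The hexamer, which reads the same on both strands, was in 9 of the 33 promoters (27.3%), against 6.42% of all 33469 promoters in the same table. A copy with T before it and A after it was in 5 of the 33 (15.2%), against 0.777% of all promoters. The hexamer was found in Ctsd, Ctsf, Glb1, Gaa, Lamp1, Mcoln1, Cln3, Atp6v0d1 and Atg5, that is in 8 of the 24 matched genes of the lysosome and proton pump groups and in 1 of the 9 matched autophagy genes. The stretches before the start of the 5 promoters with the flanked copy are shown because they hold this shared feature, with each hexamer in capitals, 5′ to 3′ on the strand of the gene. For Mcoln1 the flanked copy lies after the start and is not printed.
Lamp1 (GRCr8, chr16:83075084-83075258, minus strand): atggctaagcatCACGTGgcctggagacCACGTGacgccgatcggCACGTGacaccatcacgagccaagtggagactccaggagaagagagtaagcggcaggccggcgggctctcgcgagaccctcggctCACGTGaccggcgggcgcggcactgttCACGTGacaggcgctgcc
Ctsd (GRCr8, chr1:206968822-206968990, minus strand): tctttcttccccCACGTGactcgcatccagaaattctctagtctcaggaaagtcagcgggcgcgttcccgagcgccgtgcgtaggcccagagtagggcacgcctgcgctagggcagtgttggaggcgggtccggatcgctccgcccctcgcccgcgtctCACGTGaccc
Cln3 (GRCr8, chr1:190597950-190598007, minus strand): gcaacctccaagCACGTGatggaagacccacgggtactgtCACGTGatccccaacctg
Atp6v0d1 (GRCr8, chr19:50357283-50357312, minus strand): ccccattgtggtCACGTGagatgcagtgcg
Mcoln1 (GRCr8, chr12:6358224-6358253, plus strand): cgtcaagcttgtCACGTGttcgacccaggc

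The Lamp1 stretch held 5 copies of the hexamer between 183 and 38 bases before the start, more than any other of the printed stretches. The 9 genes with the hexamer had log2 fold changes between -0.14 and 0.09, with a median of 0.05 and 6 of them above 0. The 24 matched genes without it lay between -0.25 and 0.30, with a median of -0.01 and 11 above 0. None of either set was called. Other lettering of the element was not searched, and a match in this window is not evidence of binding.

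Tfeb encodes the transcription factor that binds this element and switches on lysosomal and autophagy genes. Its level was 23.2, 27.8, 23.7 and 25.3 CPM in saline rats 1 to 4. In METH rats 1 to 4 it was 26.2, 23.4, 36.4 and 19.6 CPM. METH rats 3 and 4 thus held the highest and the lowest value of all 8, and the saline rats lay between them. The log2 fold change was 0.08 (SE 0.16, quasi-likelihood FDR = 0.884), and it was -0.12 without METH replicate 3. Of the 42 genes, Tfeb had the widest spread in the METH group, with a coefficient of variation of 27.3% beside 8.24% among saline rats.

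Of the 9 lysosomal proteases, none was called or had an unadjusted p below 0.05, and 4 had a log2 fold change above 0. Ctsd, the main aspartic protease of the lysosome, was at 320, 358, 320 and 344 CPM in saline rats and at 347, 330, 377 and 357 CPM in METH rats, with overlapping groups and a 95% interval of 0.944 to 1.17-fold. Ctsb, an abundant cysteine protease, was at 536 ± 14.5 CPM in saline rats and 519 ± 18.7 CPM in METH rats (SD, n = 4 each), with an interval of 0.879 to 1.06-fold. Ctsl (cathepsin L), Ctsh (an aminopeptidase), Ctsf and Ctsz (further cysteine cathepsins), Ctsa (the carboxypeptidase that protects Glb1 and Neu1) and Tpp1 (the tripeptidyl peptidase lost in a childhood ceroid lipofuscinosis) had log2 fold changes between -0.04 and 0.10. Ctsf stood at 144 CPM in METH replicate 3 and at 99.1 to 116 CPM in the other METH rats. Ctsz was at 46.0 and 44.6 CPM in METH rats 3 and 4 and at 28.6 and 30.4 CPM in METH rats 1 and 2, so that the METH rats lay on both sides of the saline mean of 34.8 CPM.

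Ctsc, the dipeptidyl peptidase that activates serine proteases of immune cells, had the largest log2 fold change of the proteases and the fewest reads of the 42 genes, 36 to 104 per rat. It was at 1.98, 3.85, 4.01 and 4.49 CPM in saline rats and at 4.55, 4.95, 3.61 and 4.32 CPM in METH rats. Saline replicate 1 was the low value, and the other saline rats overlapped the METH rats. METH over saline came to 0.28 on the log2 scale (SE 0.26, quasi-likelihood FDR = 0.704), with an interval of 0.825 to 1.79-fold, and it was 0.08 without saline replicate 1.

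Of the 9 glycosidases and lipid hydrolases, 3 had a log2 fold change above 0 and none had an unadjusted p below 0.05. Hexa, whose product degrades GM2 ganglioside in neurons, was at 70.1, 69.0, 65.6 and 83.0 CPM in saline rats and at 73.3, 77.9, 92.1 and 83.4 CPM in METH rats. In Hexa 3 of the 4 saline rats lay below all METH rats, and saline replicate 4 lay among them. METH over saline came to 0.18 on the log2 scale (SE 0.10, quasi-likelihood FDR = 0.486), with an interval of 0.984 to 1.31-fold. Without METH replicate 3 it was 0.12.

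The enzymes of this group with values below 0 included Lipa, the acid lipase that frees cholesterol from its esters, at -0.17, and Glb1, the acid beta-galactosidase, at -0.14. Lipa was at 26.6, 27.7, 20.5 and 21.6 CPM in saline rats and at 22.5, 24.5, 17.4 and 21.2 CPM in METH rats, with METH replicate 3 the lowest of all 8 and a log2 fold change of -0.08 without that rat and -0.10 without saline replicate 2. Asah1 (acid ceramidase) was at 32.2 CPM in METH replicate 3 and at 47.0 CPM in METH replicate 1, below and above the saline range of 39.7 to 44.2 CPM. Ppt1, which removes palmitate from proteins, was at 89.2 ± 2.76 CPM in saline rats and 84.3 ± 3.52 CPM in METH rats (SD, n = 4 each). Gla (alpha-galactosidase A), Gaa (which breaks down glycogen), Gusb (beta-glucuronidase) and Neu1 (sialidase) had log2 fold changes between -0.07 and 0.02. Gaa had 10753 to 13593 reads per rat and Gusb 105 to 156, so that their intervals ran from 0.899 to 1.15-fold and from 0.784 to 1.28-fold.

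Psap, the precursor of the saposins that present sphingolipids to their hydrolases, had the smallest standard error of the 42 genes. It was at 2409, 2249, 2276 and 2294 CPM in saline rats and at 2409, 2388, 2373 and 2270 CPM in METH rats. The groups overlapped, the log2 fold change was 0.03 (SE 0.06, quasi-likelihood FDR = 0.860), and the interval was 0.937 to 1.12-fold. Grn encodes progranulin, a lysosomal protein whose loss leads to frontotemporal dementia or ceroid lipofuscinosis. It was at 57.6, 57.7, 58.0 and 64.3 CPM in saline rats and at 55.5, 58.0, 55.9 and 56.3 CPM in METH rats. Saline replicate 4 was the high value, and METH replicate 2 lay within the saline range. The log2 fold change of Grn was -0.07 (SE 0.08, quasi-likelihood FDR = 0.731).

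Among the 5 membrane proteins, Lamp2 had the lowest log2 fold change of the 42 genes. LAMP2 lines the lysosomal membrane, and one of its forms is the receptor of chaperone-mediated autophagy. Lamp2 was at 83.0, 82.1, 74.1 and 91.2 CPM in saline rats and at 84.4, 66.0, 57.7 and 70.3 CPM in METH rats. METH rats 2, 3 and 4 lay below every saline rat, whereas METH replicate 1 was above 3 of the 4 saline rats. On the log2 scale METH over saline was -0.25 (SE 0.11), with an interval of 0.715 to 0.992-fold, an unadjusted p of 0.0413 and a quasi-likelihood FDR of 0.428. The exact permutation test over the rats gave a two-sided p of 0.114. Without METH replicate 3 the log2 fold change was -0.17, and without METH replicate 1 it was -0.35 (quasi-likelihood FDR = 0.160).

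Lamp1, the other abundant membrane glycoprotein and the gene with the 5 hexamers shown above, was at 425, 506, 448 and 475 CPM in saline rats and at 477, 404, 484 and 430 CPM in METH rats. Its groups overlapped over most of their range, with a log2 fold change of -0.05. Scarb2, the receptor that carries glucocerebrosidase to the lysosome, had a log2 fold change of -0.18 and ranged from 88.9 to 120.1 CPM in saline rats and from 76.3 to 104 CPM in METH rats. Without METH replicate 3 the value of Scarb2 was -0.10, and without saline replicate 3 it was -0.11. Mcoln1, the calcium channel of the lysosome, was at 0.06 and Cln3, the protein lost in juvenile ceroid lipofuscinosis, at 0.09 on the same log2 scale. The difference between Lamp1 and Lamp2 in their response was not tested.

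**Figure D2:**
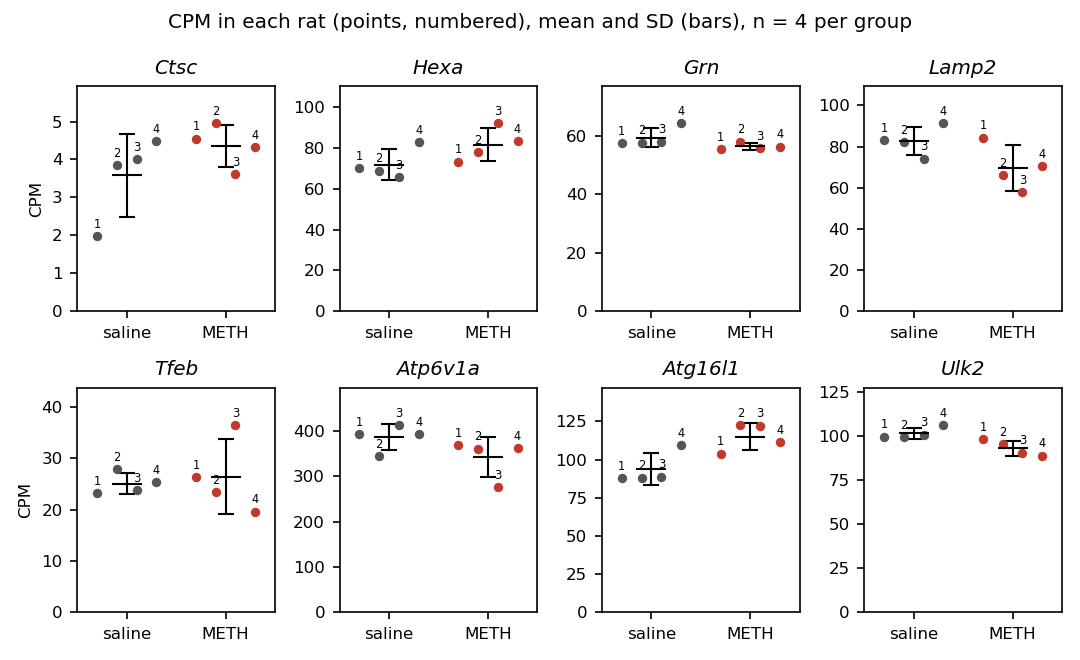
CPM (y axis, from 0) of 8 genes in saline and METH rats, with each point a rat numbered by replicate and bars for the mean and SD (n = 4 per group). Apart from Ulk2 the groups overlap, and METH rat 3 is the lowest METH rat in Lamp2 and Atp6v1a and the highest in Hexa and Tfeb.

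The proton pump consists of a membrane sector (V0), through which protons pass, and a cytosolic sector (V1), which hydrolyses ATP. None of its 5 subunits was called or had an unadjusted p below 0.05, and their sum was 1911 to 2093 CPM in saline rats and 1826 to 2021 CPM in METH rats. The V0 subunits Atp6v0a1 and Atp6v0d1 both had a log2 fold change of 0.05, with intervals of 0.934 to 1.14-fold and 0.940 to 1.14-fold. Of the V1 subunits, Atp6v1a, the catalytic one, was at 393, 344, 413 and 391.9 CPM in saline rats and at 369, 360.1, 275 and 362 CPM in METH rats. METH replicate 3 lay well below the other 7 rats, and the other METH rats lay within the saline range. METH over saline came to -0.17 on the log2 scale (SE 0.10, quasi-likelihood FDR = 0.509), and it was -0.08 without METH replicate 3. Atp6v1b2, the brain form of the nucleotide-binding B subunit, was at -0.07, and Atp6v1h, a regulatory subunit, at 0.02.

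Of the 11 genes of the autophagy machinery, 8 had a log2 fold change above 0 and none was called. Atg16l1 had the highest log2 fold change of all 42 genes. Its product brings the ATG12-ATG5 conjugate to the growing membrane and so sets where LC3 is attached. Atg16l1 was at 88.0, 88.1, 88.8 and 109 CPM in saline rats and at 104, 123, 122 and 111 CPM in METH rats. Saline replicate 4 was the only saline rat that reached the METH range, and it lay above METH replicate 1. On the log2 scale METH over saline was 0.30 (SE 0.09), with an interval of 1.07 to 1.41-fold, an unadjusted p of 0.00615 and a quasi-likelihood FDR of 0.245. The exact permutation test gave a two-sided p of 0.0571, where 0.0286 is the smallest that 4 rats against 4 allow. When each rat was omitted in turn this value lay between 0.27 and 0.38, and its quasi-likelihood FDR between 0.135 and 0.522.

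The partners of Atg16l1 had smaller differences. Atg5 and Atg12, whose products form that conjugate, had log2 fold changes of 0.07 and -0.06, and Atg7, the enzyme that activates both conjugation systems, was at -0.01. Wipi2, which recruits ATG16L1 to the membrane, was at 58.8, 59.9, 57.6 and 61.9 CPM in saline rats and at 58.5, 65.5, 60.6 and 55.2 CPM in METH rats, a log2 fold change of 0.01. Becn1, a subunit of the lipid kinase that starts the membrane, was at 140.1 ± 1.26 CPM in saline rats and 146 ± 6.57 CPM in METH rats (SD, n = 4 each), a log2 fold change of 0.06.

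Ulk1 and Ulk2 encode the related kinases that start autophagy. Ulk2 was at 99.6, 99.4, 100.8 and 106 CPM in saline rats and at 98.0, 95.2, 90.5 and 88.7 CPM in METH rats. The lowest saline rat thus lay above the highest METH rat, by a small margin. METH over saline came to -0.12 on the log2 scale (SE 0.07, quasi-likelihood FDR = 0.509). The exact permutation test gave a two-sided p of 0.0286, which follows from the groups being fully apart and adds nothing to that. The groups were fully apart in 6.39% of all genes tested. Ulk1 had a log2 fold change of 0.04, with overlapping groups of 70.1 to 85.2 CPM and 75.1 to 81.7 CPM. A difference between the responses of the kinases was not tested.

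Map1lc3a and Map1lc3b encode the LC3 proteins, and Sqstm1 encodes p62, the receptor that ties ubiquitinated cargo to LC3. Map1lc3a was at 310, 338, 247 and 283 CPM in saline rats and at 327, 305, 402 and 314 CPM in METH rats, with METH replicate 3 the highest of all 8. Its log2 fold change was 0.19 (SE 0.11, quasi-likelihood FDR = 0.507) and 0.10 without METH replicate 3. Map1lc3b was at 295, 283, 270.2 and 260 CPM in saline rats and at 292, 263, 309 and 290.1 CPM in METH rats, a log2 fold change of 0.06. Sqstm1 was at 833, 709, 701 and 691 CPM in saline rats and at 721, 709, 771 and 757 CPM in METH rats. Saline replicate 1 was the highest of all 8 for Sqstm1, and the log2 fold change was 0.01 with an interval of 0.901 to 1.13-fold.

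Some of the values above depended on 1 rat. METH replicate 3 was the highest or the lowest METH rat in 28 of the 42 genes (66.7%), beside 63.1% of all genes tested, and it also lay apart from the other METH rats on the first principal component of all genes. It was the lowest METH rat in Lamp2, Scarb2, Asah1, Lipa and Atp6v1a and the highest in Tfeb, Hexa, Ctsf, Ctsz and Map1lc3a. Without this rat the quasi-likelihood test called 0 of the 42 genes and 0.363% of all genes then tested, and 1 of the 42, Atg16l1, had an unadjusted p below 0.05, against 7.52% of all genes then tested. The median absolute log2 fold change was then 0.0446. The part of this library in the single values above was otherwise not tested.

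**Figure D3:**
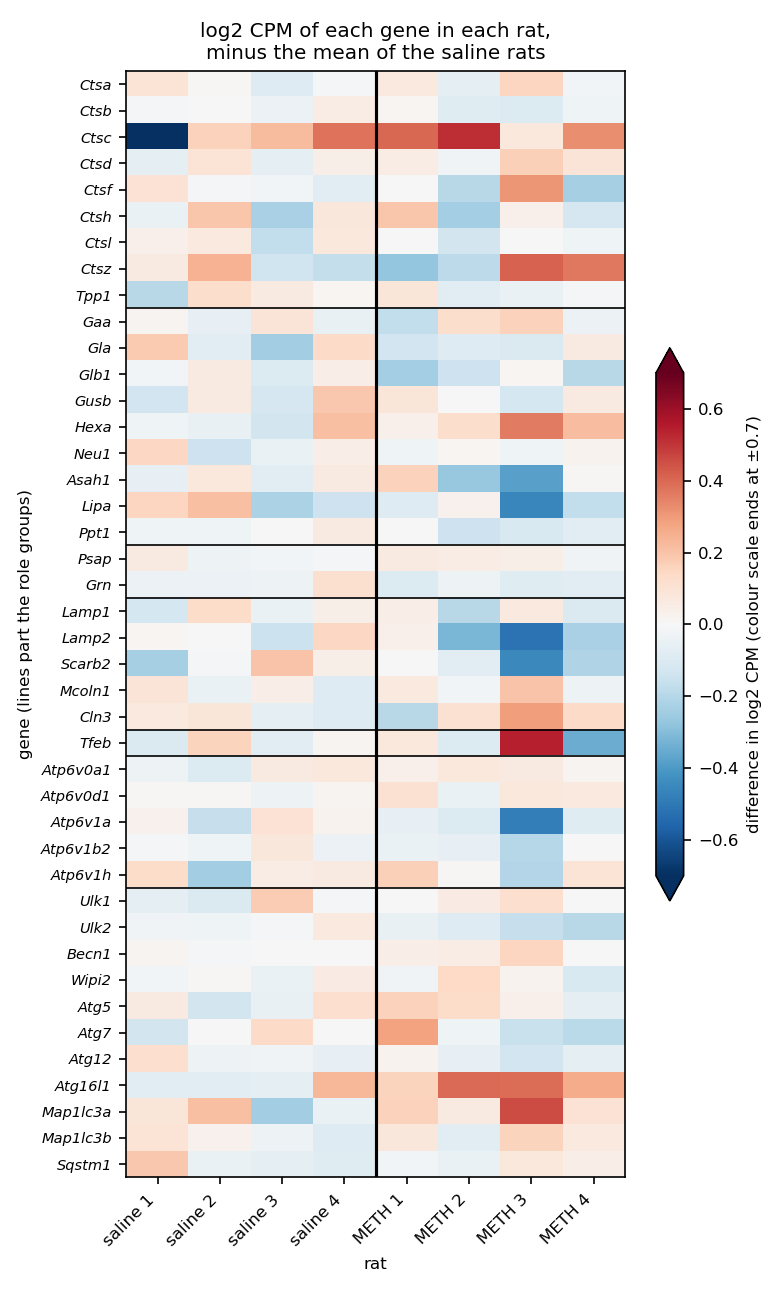
Difference in log2 CPM (colour, scale ending at ±0.7) of each of the 42 genes (rows, parted by role) in each of the 8 rats (columns) from the mean of the saline rats. The METH rat 3 column holds deep colours in both directions, with Tfeb and Map1lc3a up and Lamp2, Scarb2, Lipa and Atp6v1a down, while Ctsc is low in saline rat 1.

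A further list of 117 lysosome and autophagy genes was examined in the same fit. Of these, 107 were listed and 105 were tested, and 0 were called by the edgeR quasi-likelihood test. At an unadjusted p below 0.05, METH rats had higher levels of 3 and lower levels of 8 (10.5% of 105), close to the background of 11.1%. The groups did not overlap in 7 of the 105 (6.67%), against 6.39% of all genes tested, and the median log2 fold change was -0.01. By role, 1 of 22 further hydrolases and cofactors, 2 of 21 membrane and sorting proteins, 1 of 13 pump subunits, 3 of 16 regulators and 4 of 33 autophagy genes had an unadjusted p below 0.05.

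The gene of this list nearest to a call was Optn, which encodes optineurin, an autophagy receptor for damaged mitochondria and protein aggregates. Optn was at 39.1, 43.6, 40.0 and 41.5 CPM in saline rats and at 32.5, 34.8, 31.3 and 31.1 CPM in METH rats. The METH values all lay below the saline values. Its log2 fold change was -0.34 (SE 0.08, quasi-likelihood FDR = 0.128). The exact test, the likelihood ratio test and DESeq2 called Optn, with FDR values of 0.0399, 0.0393 and 0.0190, and it was the 1 gene of the list that each of them called, against 1.40%, 1.42% and 1.55% of all genes tested.

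The groups did not overlap in 5 of the 33 further autophagy genes tested (15.2%), Optn among them, against 6.39% of all genes tested. In the other roles this held for 1 of 22 hydrolases and cofactors, 0 of 21 membrane and sorting proteins, 0 of 13 pump subunits and 1 of 16 regulators. Further autophagy genes with groups that did not overlap and an unadjusted p below 0.05 were Atg4c, Atg4d and Wdr45. Atg4c and Atg4d encode proteases that cut LC3-like proteins, and Wdr45 encodes a relative of WIPI2. Atg4c had a log2 fold change of -0.34, with 22.5 to 28.9 CPM in saline rats and 17.4 to 22.0 CPM in METH rats. Atg4d was at 0.27 on that scale, with 40.5 to 45.2 CPM and 47.5 to 62.4 CPM, and Wdr45 at 0.21, with 26.2 to 29.6 CPM and 30.5 to 35.0 CPM. The related proteases Atg4c and Atg4d thus had values of opposite sign, with quasi-likelihood FDR values of 0.304 and 0.327.

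**Figure D4:**
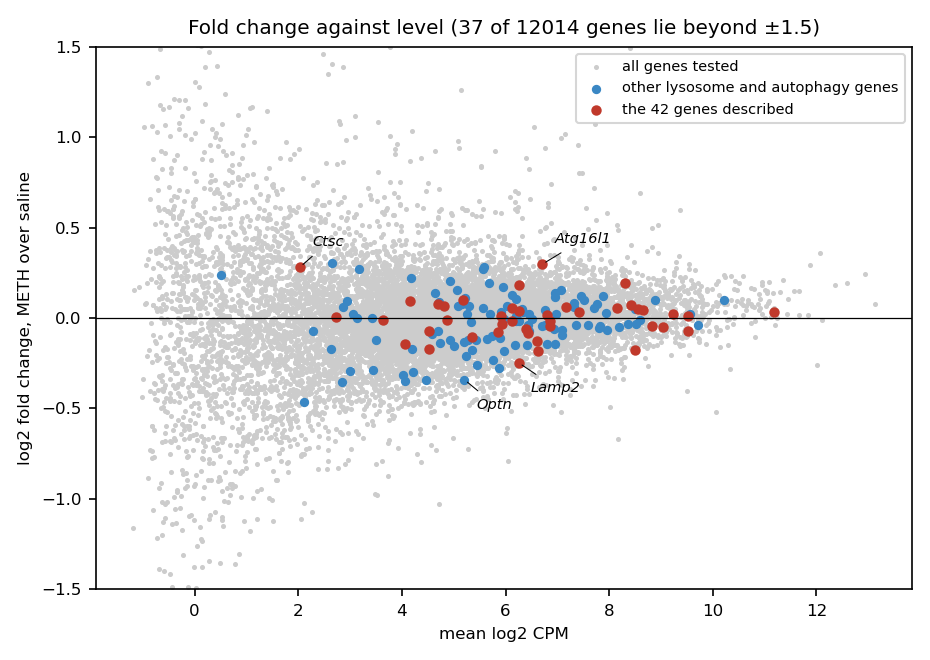
Log2 fold change of METH over saline (y axis, ending at ±1.5, which leaves 37 of 12014 genes outside) against mean log2 CPM (x axis) for all genes tested (grey), the 42 genes (red) and the 105 further lysosome and autophagy genes (blue). The red points lie between -0.25 and 0.30, within the grey cloud at their level.

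The libraries held between 18135939 and 21211920 counts, so that 3 counts, taken as the limit of detection, corresponded to 0.142 to 0.169 CPM. The lowest count of any of the 42 genes in any rat was 36. Striatal projection neuron genes were high in every rat. Their sum over 12 markers was 15447 to 16528 CPM in saline rats and 16363 to 20278 CPM in METH rats. The highest sum was in METH replicate 3, where Ppp1r1b alone supplied 10288 CPM. Penk, Drd2 and Rgs9 were also highest in that rat, whereas Drd1 and Bcl11b were lowest there. Of the choroid plexus markers, Otx2 had 0 counts in every rat, and Ttr was above 1 CPM only in METH rats 1 and 3. The 2 tested, Folr1 and Clic6, had log2 fold changes of 0.45 and 0.79. Lysosomal genes are strongly expressed in microglia, and 2 of 15 microglial markers, Cx3cr1 and Mpeg1, were called lower, with log2 fold changes of -0.73 and -0.79, against 0.0666% of all genes tested. Of the 15 markers, 12 had a log2 fold change below 0, and C1qa, C1qb and C1qc were above 0, at 0.09 to 0.11. The summed level of the 15 markers was 543 to 643 CPM in saline rats and 489 to 545 CPM in METH rats. The 9 endothelial and pericyte markers summed to 507 to 714 CPM in saline rats and 489.9 to 530.0 CPM in METH rats. For oligodendrocytes the sums were 13758 to 19644 CPM and 12874 to 19096 CPM, and for astrocytes 4611 to 5685 CPM and 4911 to 5940 CPM. The choroid plexus sums were 5.10 to 6.5208 CPM in saline rats and 6.5213 to 9.45 CPM in METH rats. The highest saline and the lowest METH sum were thus nearly equal, much closer than the CPM of 3 counts. Only 2 of these 8 markers passed the filter on low counts. None of the 10 astrocyte, 10 oligodendrocyte, 9 endothelial and pericyte, 2 choroid plexus and 12 striatal neuron markers tested was called. Log2 fold changes below 0 were not particular to microglia. They were found in 9 of 9 endothelial and pericyte, 8 of 10 oligodendrocyte, 4 of 10 astrocyte, 5 of 12 striatal neuron and 0 of 2 choroid plexus markers. The median was -0.207 for endothelial and pericyte markers and -0.205 for microglial markers. In tissue RNA, fewer cells of a type and less RNA per cell cannot be told apart, and the part of microglia in the values of the 42 genes was not tested.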

How the data were processed

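Reads were trimmed with Cutadapt 1.18, aligned to rn6 with STAR 2.7.0e and counted per gene with featureCounts of Subread 1.6.4, per the labels and methods. The authors deposited raw counts per gene symbol, 1 column per rat. The annotation, strand setting and handling of multi-mapping reads are not given in the sources used here. The library kit does not mark strand, so reads of overlapping genes may be mixed: 8 of the 42 genes overlap another listed gene in RefSeq GRCr8 (Ctsa, Ctsd, Ctsz, Hexa, Psap, Cln3, Atp6v1h, Becn1). With annotated genes that are absent from the count data included, 19 of the 42 overlap another gene, among them Atg16l1 (Scarna6 and Scarna6l), Lamp1 and Atp6v1a.

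Counts were analysed with R 4.3.3 and edgeR 4.0.16: filterByExpr (minimum count 10), TMM scaling (factors 0.956 to 1.018), quasi-likelihood F-test over 12014 genes and Benjamini-Hochberg adjustment. A prior count of 2 entered log2 CPM. The standard error (SE) is the log2 fold change divided by the square root of F, and the 95% interval uses the t distribution with the degrees of freedom of the fit. Exact permutation tests used all 70 labelings of the rats. The fit was tested on simulated counts.

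The genes, lists and tests were chosen with earlier results of these data known. Of the 42 genes, values in each rat were given for those that were called, did not overlap or had an unadjusted p below 0.05, and for the largest absolute change in each role. Others of the 42 with values in each rat were chosen after their values were seen. Further pathway genes were named where they were called, or did not overlap and had an unadjusted p below 0.05. Cx3cr1 and Mpeg1 were named because they were called, and the other markers named were chosen after their values were seen. Alternatives were other tests (DESeq2 1.42.0, limma 3.58.1), scalings, filters, call rules, each rat left out and the rat number as a block. No library was a repeat of another: for rats of a group, chi-square over its degrees of freedom was 10.4 to 28.6. Libraries of 18135939 to 21211920 counts bound the precision, beside the variation among rats.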

Additional observations from a re-analysis of the deposited data

Results flagged for a closer look

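For each gene, the distance from the outermost rat of a group to the next was divided by the range of the 4 rats, on the log2 CPM scale. Of 84 groups (42 genes in both conditions), 5 were past the critical value of Dixon at 95%, which is 5.95% where chance flags about 5%. Atg16l1 stood apart in saline replicate 4 (share 0.959), at 109 CPM against 88.0 to 88.8 CPM in the other saline rats. Grn stood apart in the same rat (share 0.940), at 64.3 CPM against 57.6 to 58.0 CPM. Atp6v1a stood apart in METH replicate 3 (share 0.918), at 275 CPM against 360.1 to 369 CPM. Sqstm1 stood apart in saline replicate 1 (share 0.861), at 833 CPM against 691 to 709 CPM, and Ctsl in saline replicate 3 (share 0.842), at 104 CPM against 120.2 to 123 CPM.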

How the results depend on the processing

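None of the 42 genes was called in any of the fits or call rules tried, including those that left out a rat. The sign of the log2 fold change held in every fit for 27 of them, and the largest absolute value of a gene whose sign changed was 0.102. The median over the 42 genes was -0.0288 with total-count scaling, under which Ctsa was at -0.0013, Gaa at -0.0149, Gusb at -0.0309, Psap at -0.0029, Atp6v1h at -0.0178, Wipi2 at -0.0266 and Sqstm1 at -0.0247. With upper-quartile scaling Gusb was at -0.0032. With a rat left out, the median ranged from -0.0098 to 0.0187, and the sign changed for Ctsa (-0.0047 to 0.0680), Ctsf (-0.140 to 0.0497), Ctsh (-0.113 to 0.0359), Ctsz (-0.0113 to 0.211), Tpp1 (-0.0780 to 0.0234), Gaa (-0.0250 to 0.0827), Gusb (-0.0400 to 0.0709), Neu1 (-0.0540 to 0.0425), Lamp1 (-0.0851 to 0.0017), Tfeb (-0.115 to 0.196), Atp6v1h (-0.0592 to 0.0844), Wipi2 (-0.0359 to 0.0475), Atg7 (-0.128 to 0.0426) and Sqstm1 (-0.0172 to 0.0780). Over all genes tested, 62 genes were called. The exact test called 168, the likelihood ratio test 170 and DESeq2 186, and the cause was not tested. Each of these also called 1 gene of the further list, against 0 otherwise. Leaving out a rat gave 37 to 70 calls over all genes, the fewest without saline replicate 2. With the replicate block 37 genes were called and 0 of the 42, but the labels give rats only a number: the correlation of deviations between same-numbered rats was -0.09 on average. Ctsc and Gusb had the fewest reads of the 42 genes, from 36 and 105 in the lowest rat.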
